A study of Mus musculus with 48 samples.

Results

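The HoxB genes are the 10 members of the mouse HoxB cluster, *Hoxb1* to *Hoxb9* and *Hoxb13*. They were taken by their names, with earlier results of these data known, and all 10 were among the 16510 genes of the table. They were followed in single-cell RNA sequencing of the hypothalamus at E18.5, in 14121 cells from 48 libraries. The 6 control embryos (22 libraries) were *Eed fl/fl*, with both copies of *Eed* flanked by loxP sites and no Cre. The 9 *Eed-cKO* embryos (26 libraries) were *Eed fl/fl; Sox1-Cre/+*, so that Cre was made in cells that express or had expressed *Sox1*, a gene of the early neural plate and of neural progenitors. The floxed alleles were shared by both genotypes, whereas Cre, and the single copy of the *Sox1-Cre* allele, were present in the mutants alone. Each hypothalamus had been divided into pieces before dissociation, and the libraries of 1 embryo were summed. The embryo was therefore the replicate.

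Hox genes encode homeodomain transcription factors that give cells their position along the body axis. In the nervous system they are normally used in the hindbrain and spinal cord and are silent in the forebrain, of which the hypothalamus is a part. Within a cluster, genes at the 3′ end (*Hoxb1*, *Hoxb2*) are used furthest forward and genes at the 5′ end furthest back, and *Hoxb13* is a gene of the tail end of the spinal cord. Polycomb repressor complex 2 (PRC2), of which Eed is a core subunit, methylates histone H3 on lysine 27, a mark of silent Hox clusters.

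On the mouse GRCm38 (mm10) genome with the GENCODE vM21 annotation, the 10 genes lie on the + strand of chromosome 11, between positions 96194316 and 96368256, a span of 173.9 kb. *Hoxb13* (96194316 to 96197447) stands apart, 74.0 kb from *Hoxb9* (96271457 to 96276595), whereas the other genes are separated by 1.31 to 12.1 kb. *Hoxb1*, at the opposite end, covers 96365752 to 96368256. Opposite-strand transcripts overlap 52.9% of the exon bases of *Hoxb3* and 27.3% of those of *Hoxb2* (*Hoxb3os* in both) and 3.59% of those of *Hoxb5* (*Hoxb5os*). Whether the counting used strand is not given in the sources used here, so reads of these genes and of their antisense partners cannot be told apart.

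Promoter sequences were found for 3 members in the RefSeq table of GRCm38.p6. They are shown because they mark the middle of the cluster and its anterior end, where *Hoxb1* stood apart from the other genes, and because unmethylated CpG-rich DNA is where PRC2 is commonly found. Each runs from 250 bases before to 50 bases after the start of the gene, on the + strand of chromosome 11 (*Hoxb8*, chr11:96281655-96281954; *Hoxb4*, chr11:96318017-96318316; *Hoxb1*, chr11:96365508-96365807), and capitals mark every CG, the motif that was counted (CG reads the same on both strands).
*Hoxb8*: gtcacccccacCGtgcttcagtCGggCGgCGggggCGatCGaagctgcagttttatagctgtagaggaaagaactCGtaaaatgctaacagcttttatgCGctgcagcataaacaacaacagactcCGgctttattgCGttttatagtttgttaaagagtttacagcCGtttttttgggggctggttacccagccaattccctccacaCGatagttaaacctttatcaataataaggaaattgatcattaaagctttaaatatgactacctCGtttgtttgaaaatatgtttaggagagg
*Hoxb4*: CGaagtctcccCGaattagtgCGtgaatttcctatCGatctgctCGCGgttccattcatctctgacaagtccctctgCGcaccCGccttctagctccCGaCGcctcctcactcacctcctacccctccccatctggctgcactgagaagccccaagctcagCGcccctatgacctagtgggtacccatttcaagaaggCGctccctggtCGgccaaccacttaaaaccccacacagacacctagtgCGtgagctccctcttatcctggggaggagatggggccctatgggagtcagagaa
*Hoxb1*: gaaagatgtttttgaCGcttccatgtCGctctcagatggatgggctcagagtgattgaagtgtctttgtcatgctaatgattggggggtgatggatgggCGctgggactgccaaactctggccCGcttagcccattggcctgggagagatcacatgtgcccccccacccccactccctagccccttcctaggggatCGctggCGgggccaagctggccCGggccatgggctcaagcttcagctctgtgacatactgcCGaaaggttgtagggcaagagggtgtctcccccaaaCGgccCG
The *Hoxb8* window holds 13 CG in 42.3% GC, *Hoxb4* 14 in 58.0% GC and *Hoxb1* 10 in 59.3% GC. As many or more were found in 37.9%, 36.3% and 43.5% of the 32851 windows of the same length in the table, whose median is 7. These 3 windows were thus above the median but not unusual, and the one of *Hoxb1* was the poorest in CG of the 3. Windows of the other members were not found, and a link between CG number and level was not tested.

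A unique molecular identifier (UMI) is a tag that lets each captured transcript be counted once. Libraries held 163 to 1207 cells and 576432 to 4513505 UMIs. The largest, from control replicate 5, had 1207 cells against 465 in the next, with a median of 2919 UMIs per cell, and the 7 calls between the genotypes given below held without it. Of 14019 cell barcodes, 101 occurred in more than 1 library (203 cells, 30 of them with a HoxB UMI), 55 of these between the genotypes. The names of the libraries open with a code, 4 codes in control and 6 in *Eed-cKO*, and none was shared, so that genotype and code cannot be told apart. The clusters of both genotypes included cells led by hypothalamic genes, such as *Avp* and *Sim1* (370 control and 143 *Eed-cKO* cells) or *Vgll2*, *Fezf1* and *Nr5a1* (239 and 88 cells). *Eed* itself was at 31.99 ± 1.90 CPM (SD, n = 6) in neural cells of control and 23.4 ± 2.62 CPM (n = 9) in *Eed-cKO* embryos (log2 fold change -0.45 ± 0.085 SE, adjusted p = 0.000449, edgeR). The loxP sites flank internal exons and tags are read from the 3′ end, so these counts do not check the deletion.

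The first comparison asks which HoxB genes were transcribed in neural cells of *Eed-cKO* embryos. Neural cells are all cells outside the vascular, leptomeningeal and microglial clusters, 6839 in control (37518308 UMIs, median 4768 per cell). In *Eed-cKO* they numbered 6455 (32992706 UMIs, median 4426 per cell). Counted among them was an unnamed cluster led by *Ttr*, *Cga*, *Kcne2*, *Tshb* and *Clic6*, of which *Cga* and *Tshb* are pituitary markers. That cluster held 61 *Eed-cKO* cells, 59.0% of them from a single embryo, 0 control cells and 3 UMIs of *Hoxb13*. In control, 8 of the 10 genes had no UMI at all. The exceptions were *Hoxb1*, with 3 UMIs in 3 neurons of 2 embryos, and *Hoxb13*, with 1 UMI in 1 neuron. In *Eed-cKO*, *Hoxb2* to *Hoxb9* and *Hoxb13* were found in 9 of 9 embryos.

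Levels are given as CPM, the UMIs of an embryo's neural cells scaled to a common total by TMM. One UMI stands for 1 transcript whatever its length, so levels of different genes were not divided by length, although genes can differ in how well they are captured. *Hoxb13*, the 5′ gene, was the highest, at 34.8 to 53.9 CPM over the 9 *Eed-cKO* embryos (median 38.0, mean 40.3 ± 6.25 SD, 1303 UMIs). The control embryos were at 0 in 5 and 0.195 in 1, so the genotypes did not overlap. *Hoxb13* was 1482-fold higher in pooled CPM (95% counting interval 265 to 58570).

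*Hoxb3*, a gene of the hindbrain, came second at 9.29 to 29.9 CPM (median 15.8, 554 UMIs), and all control embryos were at 0. *Hoxb5*, which is used from the posterior hindbrain back, was at 8.81 to 16.2 CPM (median 12.6, 412 UMIs). *Hoxb7*, a gene of the spinal cord, was at 6.28 to 9.79 CPM (median 7.89). Its coefficient of variation was the lowest of the members (12.7%), a ranking that rests on 5 to 57 UMIs per embryo and is not read further. These 3 genes and *Hoxb13* held most of the UMIs of the cluster.

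*Hoxb2*, which acts in the anterior hindbrain, was at 2.86 to 8.08 CPM (median 5.23). *Hoxb6* was at 2.77 to 4.95 CPM (median 4.04) and *Hoxb4* at 2.16 to 7.89 CPM (median 3.28). The highest *Hoxb4* value came from replicate 2, the embryo with the fewest cells, where it rests on 5 UMIs. *Hoxb8* was at 0.989 to 3.44 CPM (median 1.82, 69 UMIs) and *Hoxb9* at 1.19 to 2.47 CPM (median 1.43, 50 UMIs). Levels thus did not follow the order along the chromosome: the neighbours *Hoxb9* and *Hoxb8*, next after *Hoxb13*, were among the lowest.

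*Hoxb1*, the 3′ gene and a marker of rhombomere 4, was the exception. It had 8 UMIs in 8 cells of 5 *Eed-cKO* embryos against 3 in control, a ratio of 3.03 with a 95% counting interval from 0.728 to 17.7. A difference between the genotypes was not detectable at this depth. Of the 3 control UMIs, 2 came from the largest library, that of control replicate 5, so the ratio leans on that library. It was not computed without it. For genes at 0 in control, setting the control sum to 3 UMIs gives lower bounds: *Hoxb3* was at least 210-fold, *Hoxb5* at least 156-fold, *Hoxb7* at least 102-fold, *Hoxb2* at least 70.9-fold, *Hoxb6* at least 50.4-fold, *Hoxb4* at least 42.5-fold, *Hoxb8* at least 26.2-fold and *Hoxb9* at least 18.95-fold higher.

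**Figure D1:**
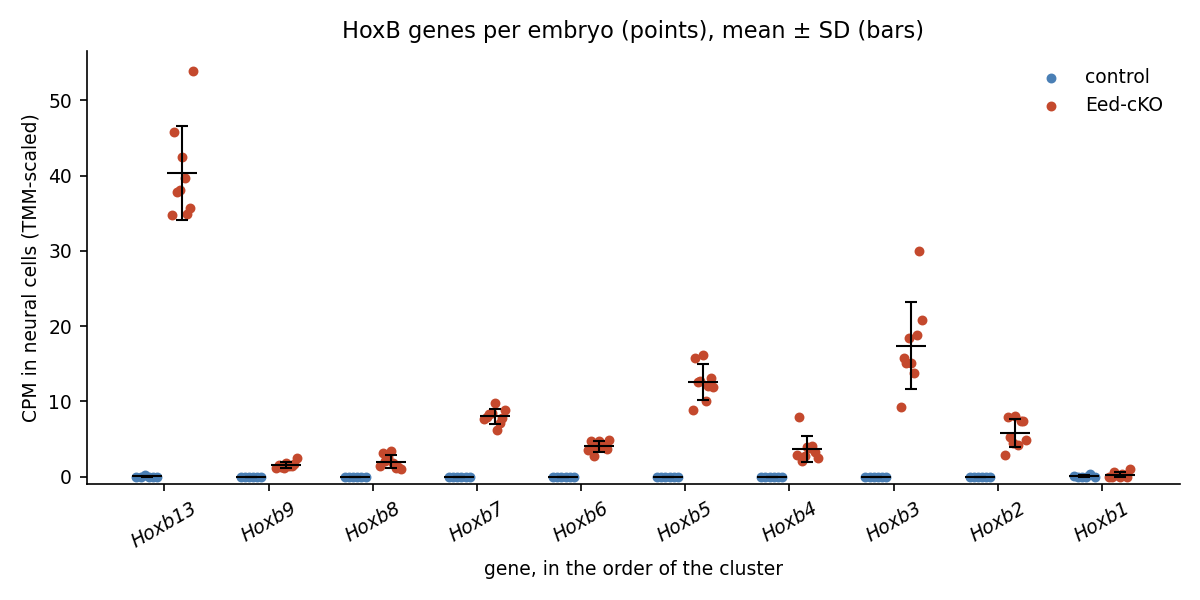
CPM in neural cells (y axis) of each HoxB gene (x axis, from the 5′ to the 3′ end of the cluster) in 6 control (blue) and 9 *Eed-cKO* (red) embryos. Points are embryos, the horizontal bar is the mean and the error bar the SD. *Hoxb13* sits between 34.8 and 53.9 CPM in *Eed-cKO*, *Hoxb9* and *Hoxb8* lie below 4 CPM, and control embryos lie at or near 0.

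In order of their mean, *Hoxb13* ranked above *Hoxb3* in 9 of 9 embryos, by 22.9 ± 8.22 CPM (SD), and their ranges did not overlap. The ranges of all following neighbours in the order (*Hoxb3*, *Hoxb5*, *Hoxb7*, *Hoxb2*, *Hoxb6*, *Hoxb4*, *Hoxb8*, *Hoxb9*) overlapped. *Hoxb5* was above *Hoxb7* in 9 of 9 embryos, whereas *Hoxb8* was above *Hoxb9* in 6 of 9. *Hoxb9* was above *Hoxb1* in 9 of 9. The 26 *Eed-cKO* libraries gave the same picture for the leading gene: *Hoxb13* was found in all 26 at 22.05 to 54.5 CPM, and *Hoxb9* in 20.

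Of the members, 7 passed the filter on low counts, and they passed it only through the *Eed-cKO* embryos, so that a difference was built into them. All 7 were higher in *Eed-cKO* (edgeR's quasi-likelihood test, Benjamini-Hochberg adjustment), in a comparison in which 15.3% of the 12545 genes tested were called higher. The lowest mutant embryo was above the highest control for 4.03% of the genes, and for these 7. The log2 fold change, which for genes at 0 depends on the prior count, was 9.52 ± 0.28 for *Hoxb13* (SE, adjusted p = 8.66e-16), 9.33 ± 0.52 for *Hoxb3* and 8.85 ± 0.40 for *Hoxb5*, and 6.99 ± 0.57 for *Hoxb4*, the lowest. With at least 15 UMIs as the only filter, which the 9 members tested again passed only through the *Eed-cKO* embryos, 9 were higher (*Hoxb8* 6.23, adjusted p = 3.82e-06, *Hoxb9* 5.84, adjusted p = 2.72e-06) against 14.2% of all genes. *Hoxb1* was not tested in either. With libraries as samples, 5 members passed the filter and 5 were higher.

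Of the paralogs of *Hoxb13*, *Hoxc13* was at 33.3 to 64.7 CPM in *Eed-cKO* (1663 UMIs) and *Hoxd13* at 2.46 to 11.1 CPM (193 UMIs), and both had 0 UMIs in control. The ranges of *Hoxc13* and *Hoxb13* overlapped, while *Hoxd13* lay among the middle HoxB genes. Of the other Hox clusters, 18 of 24 genes of the table were tested and 18 were higher (median log2 fold change 9.03, all genes 0.0056). The 4 with the smallest adjusted p (among them *Hoxc10*, 0 against 66.9 CPM, and *Hoxa10*, 0.0267 against 32.4 CPM) were at or near 0 in control, so that such genes passed the filter only through the *Eed-cKO* embryos and could not but be higher.

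Among genes that regulate or partner Hox genes, 6 of 7 known regulators tested were higher and none lower, where 15.3% of all genes were higher. *Aldh1a2*, an enzyme that makes retinoic acid, changed by 3.81 ± 0.43 (log2, adjusted p = 1.12e-06) and *Egr2*, which drives *Hoxb2* in the hindbrain, by 2.11 ± 0.33 (adjusted p = 6.38e-05). *Rara*, a retinoic acid receptor, rose by 0.67 and *Cyp26b1*, which degrades retinoic acid, by 1.33. In *Eed-cKO* embryos *Aldh1a2* was far higher in non-neural than in neural cells (261 ± 84.6 against 5.19 ± 1.46 CPM), as was *Cyp26b1* (94.1 ± 128 against 9.32 ± 3.40), and *Egr2* in glia-like than in neuron-like cells (83.4 ± 32.05 against 3.98 ± 1.91). Glia-like cells numbered 586 in control and 970 in *Eed-cKO*, and vascular leptomeningeal-like cells, which neural cells leave out, 89 and 268. The part of these cell numbers in the differences was not tested. Of the TALE cofactors, which bind DNA with Hox proteins, 3 of 9 were higher, with *Meis1* at 1.90 ± 0.17. Of the PRC2 core, 1 of 6 genes passed the test, *Eed*.

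Most genes tested on either side of the cluster did not pass the test. Within 500 kb, 13 of 18 neighbours were tested. Of these, 4 were higher, where 15.3% of all genes were higher, and 1 was lower. Their median log2 fold change was -0.05, against 0.0056 for all genes. Those higher were *Copz2* (2.23 ± 0.29), *Igf2bp1* (1.49 ± 0.21), *Ttll6* (1.71 ± 0.51) and *Snf8* (0.29 ± 0.084). *Copz2* was also higher in non-neural than in neural *Eed-cKO* cells (134 ± 58.5 against 6.73 ± 1.85 CPM). It was higher in glia-like than in neuron-like cells as well (34.3 ± 18.53 against 2.02 ± 2.30 CPM). So were *Igf2bp1* (45.2 ± 14.7 against 10.6 ± 3.41 CPM) and *Ttll6* (20.7 ± 13.1 against 0.638 ± 0.685 CPM). Glia-like cells numbered 586 in control and 970 in *Eed-cKO*. What part these numbers had in the differences was not tested. Posterior neural transcription factors outside the Hox clusters were higher in 7 of 8 tested and lower in 1, where 15.3% of all genes were higher. *Tfap2a* was at 4.74 ± 0.28 and *Pax2* at 4.68 ± 0.41. The authors had already reported *Tfap2a*, *Tfap2b*, *Pax2*, *Pax8* and *Lhx5*, all on this list, as ectopic in these mutants. Nothing is therefore read from the count. Of 5 noncoding RNAs of the cluster that were looked for, 1 was among the genes counted, *Hoxb5os*, and it did not pass the filter. *Hoxb3os* was not among them.

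Within *Eed-cKO* embryos, HoxB UMIs were also counted in cells outside the neural lineage. The authors took such cells as not targeted by *Sox1-Cre*, which was not checked here. Cells were grouped with all Hox genes left out, so that the groups do not rest on the genes described. The 480 non-neural cells (median 3702.5 UMIs per cell, against 4426 in neural cells) held 5 UMIs of *Hoxb13* and 15 of *Hoxb1* to *Hoxb9*, against 1303 and 1793 in the 6455 neural cells. When each cell was thinned to 2000 UMIs, which left out 1015 neural and 120 non-neural cells, *Hoxb13* was found in 7.04% of neural cells (383 of 5440) and in 0.556% of non-neural cells (2 of 360, 95% exact interval 0.0674 to 1.99%). Any of *Hoxb1* to *Hoxb9* was found in 9.93% and 0.833%. Shares in neural cells were above those of the non-neural cells.

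In the non-neural cells of the 8 embryos that had at least 10 of them, each member had 0 to 5 UMIs, so that the members tested passed the filter only through the neural cells, where they are high. Over these embryos, 7 of 9 members tested were higher in neural cells (edgeR with the embryo as a block), where 34.3% of all genes were called higher. Because of the filter, nothing is read from this count. *Hoxb13* was at 35.4 to 54.5 CPM in neural cells (median 38.7) and at 0 to 9.10 in non-neural cells (log2 fold change 4.19 ± 0.46, adjusted p = 1.58e-08, higher in 8 of 8). *Hoxb2* and *Hoxb8* had no UMI in non-neural cells, which puts them at least 4.35-fold and 1.60-fold higher in neural cells. *Hoxb6* (1.28 ± 0.68, adjusted p = 0.108) and *Hoxb9* (1.69 ± 1.08, adjusted p = 0.184) did not pass. Non-neural cells held 4 UMIs of *Hoxb6* and 1 of *Hoxb9*, so these tests rest on few molecules. DESeq2 called 5 of the 9.

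At matched depth, the share of *Eed-cKO* neural cells with *Hoxb13* was 6.18 to 9.65% over the 9 embryos (mean 7.25 ± 1.05% SD), the highest in replicate 9. Without thinning, the mean was 13.8%, and with 2 UMIs asked of a cell at 2000 UMIs it was 1.402%. In neural cells of all depths, 624 of the 891 cells with *Hoxb13* held 1 UMI, and the most in a cell was 6. The transcripts were thus caught in a minority of cells and mostly once, and a cell without a UMI cannot be called a cell without the transcript.

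Neural clusters were named from marker genes. Of the *Eed-cKO* neural cells, 5234 were neuron-like, 970 glia-like (520 astrocyte-like, 241 tanycyte-like, 165 oligodendrocyte precursor- or cycling progenitor-like and 44 ependymal-like) and 251 unnamed. Tanycytes are the glia that line the third ventricle. In neurons, *Hoxb13* made up much of the cluster's UMIs: there were 1.23 UMIs of *Hoxb1* to *Hoxb9* per UMI of *Hoxb13*. In astrocyte-like cells there were 3.39, but this ratio ran from 0.667 to 22 over the embryos and was above that of neurons in 8 of 9.

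Per embryo, this ratio was 0.940 to 1.73 in neuron-like cells (median 1.12) and 1.43 to 4.00 in glia-like cells (median 3.13). It was higher in glia in 9 of 9 embryos. Not every glial kind shared this. Pooled over embryos, the ratio was 1.14 in the oligodendrocyte precursor- or cycling progenitor-like cells, below the 1.23 of neuron-like cells. It was 4.50 in tanycyte-like and 13 in ependymal-like cells, on 4 and 1 UMIs of *Hoxb13*. Astrocyte-like cells held 241 of the 322 UMIs of *Hoxb1* to *Hoxb9* in glia. Because the ratio is taken within a cell group, it does not depend on how many UMIs the cells of that group hold.

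The members parted in both directions. *Hoxb9*, a thoracic gene, was at 3.04 to 13.2 CPM in glia-like cells (median 6.00) and 0 to 2.35 CPM in neuron-like cells (median 0.546), with no overlap and higher in glia in 9 of 9 embryos (log2 fold change 2.99 ± 0.51, adjusted p = 9.45e-06). Its UMIs were 30 in 970 glia and 20 in 5234 neurons, and 23 of the 30 were in astrocyte-like cells. *Hoxb8* was higher in glia by 1.94 ± 0.50 (adjusted p = 0.00119, 8 of 9 embryos), *Hoxb6* by 1.37 ± 0.43 (adjusted p = 0.00667, 5 of 9) and *Hoxb2* by 0.99 ± 0.33 (adjusted p = 0.0109, 8 of 9). *Hoxb6* had no UMI in the glia of at least 1 embryo, so its direction is not shared by all embryos.

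In the opposite direction, *Hoxb13* was at 18.48 to 35.3 CPM in glia (median 25.2) and 39.3 to 61.1 CPM in neurons (median 46.2), again with no overlap and lower in glia in 9 of 9 embryos (log2 fold change -0.87 ± 0.15, adjusted p = 1.62e-05). *Hoxb5* (-1.31 ± 0.36, adjusted p = 0.00237) and *Hoxb3* (-0.66 ± 0.23, adjusted p = 0.0138) were also lower in glia, each in 8 of 9 embryos. *Hoxb4* (0.99 ± 0.45, adjusted p = 0.0530) and *Hoxb7* (0.28 ± 0.33, adjusted p = 0.460) did not pass.

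Thus 4 of the 9 members tested were higher and 3 lower in glia, where 30.3% of all genes were higher and 35.8% lower. As a count this is near the background, and the description rests on which member went which way. Of the other Hox clusters, 4 of 23 were higher and 5 lower, with *Hoxd8* higher in glia (1.80 ± 0.25) and *Hoxc10* (-1.98 ± 0.17), *Hoxc13* (-1.48 ± 0.20) and *Hoxd10* (-1.51 ± 0.20) lower. Median depth was 3867.5 UMIs per glia-like and 4654.5 per neuron-like cell. With cells thinned to 2000 UMIs, *Hoxb9* (2.86), *Hoxb8* (2.56) and *Hoxb4* (1.51) were higher in glia and *Hoxb13* (-0.74), *Hoxb5* (-0.99) and *Hoxb3* (-0.99) lower, while *Hoxb6* (0.82) and *Hoxb2* (0.77) did not pass.

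The neurons included 1 cluster, led by *Tfap2b* and described below, that held much of the neuronal *Hoxb13*. With that cluster left out (a check added once the values were known), *Hoxb13* was no longer lower in glia (0.16 ± 0.19, adjusted p = 0.488). *Hoxb3* turned to higher in glia (0.66 ± 0.29, adjusted p = 0.0486), and *Hoxb5* no longer passed (-0.48, adjusted p = 0.342). In this comparison, 7 of 9 members were higher in glia, against 31.6% of all genes. The cluster left out held 62.2% of the neuronal *Hoxb13* UMIs and 63.3% of those of the other members. Leaving it out lowers the neuron side for the members by choice of cells, so nothing is read from this count. *Hoxb9* (3.36 ± 0.57) and *Hoxb8* (2.16 ± 0.52) kept the direction, and the direction for *Hoxb13* depended on which neurons were counted.

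**Figure D2:**
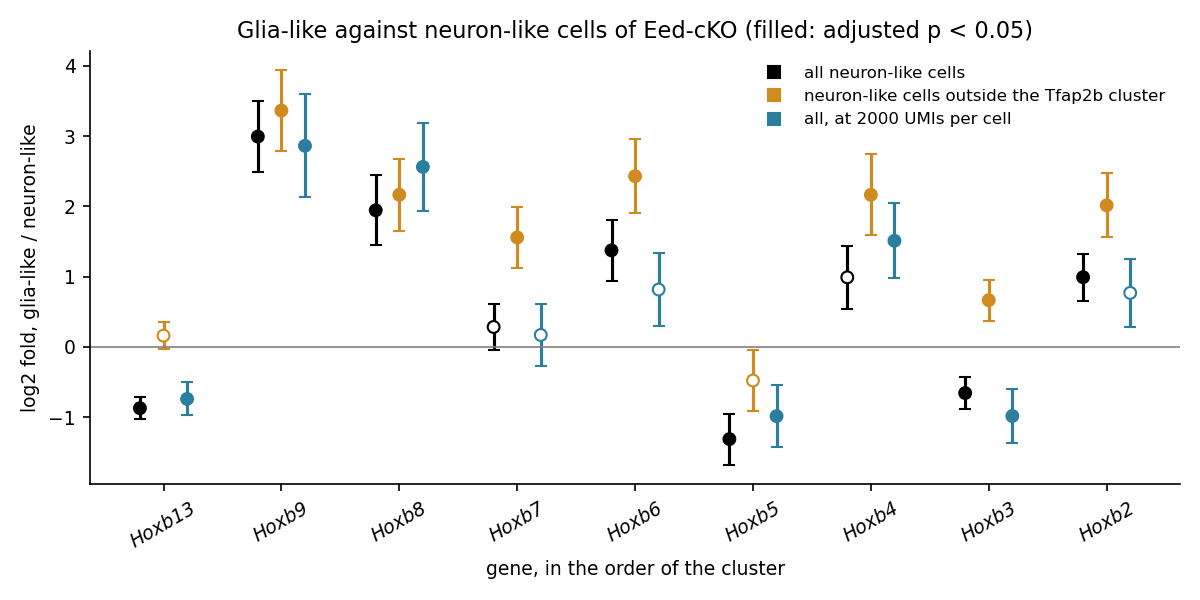
Log2 fold change of glia-like over neuron-like cells in 9 *Eed-cKO* embryos (y axis) for each HoxB gene tested (x axis, 5′ to 3′), with SE as error bars. Black is all neuron-like cells, orange neuron-like cells outside the *Tfap2b* cluster, blue all cells at 2000 UMIs. Filled points have an adjusted p under 0.05. *Hoxb9* lies near 3 in each, and *Hoxb13* moves from -0.87 to 0.16 without the *Tfap2b* cluster.

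Among glia, levels pooled over cells were uneven. Astrocyte-like cells were at 30.3 CPM of *Hoxb13*, 15.8 of *Hoxb2* and of *Hoxb6*, 11.1 of *Hoxb4*, 10.2 of *Hoxb8* and 9.81 of *Hoxb9*. Tanycyte-like cells were at 4.27 CPM of *Hoxb13* (4 UMIs in 241 cells) and 19.2 of *Hoxb1* to *Hoxb9* summed. In the oligodendrocyte precursor- or cycling progenitor-like cells *Hoxb13* was at 45.5 CPM, close to the 42.1 CPM of neuron-like cells.

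At 2000 UMIs per cell, any of *Hoxb1* to *Hoxb9* was found in 19.3% of astrocyte-like cells (81 of 420, 95% exact interval 15.6 to 23.4%), 2.67% of tanycyte-like cells (5 of 187, 0.874 to 6.13%) and 9.45% of neuron-like cells (432 of 4572, 8.62 to 10.3%). *Hoxb9* alone was found in 1.90% of astrocyte-like and 0.153% of neuron-like cells. *Hoxb13* was found in 6.67% of astrocyte-like cells, 7.52% of neuron-like cells and 1.07% of tanycyte-like cells, the last within the interval of the non-neural cells. None of the 41 ependymal-like cells held *Hoxb13* at this depth (95% exact interval up to 8.60%) and 1 of all 44 did before thinning, while 8 of the 41 held another HoxB gene. These intervals cover counting error and not the spread between embryos.

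**Figure D3:**
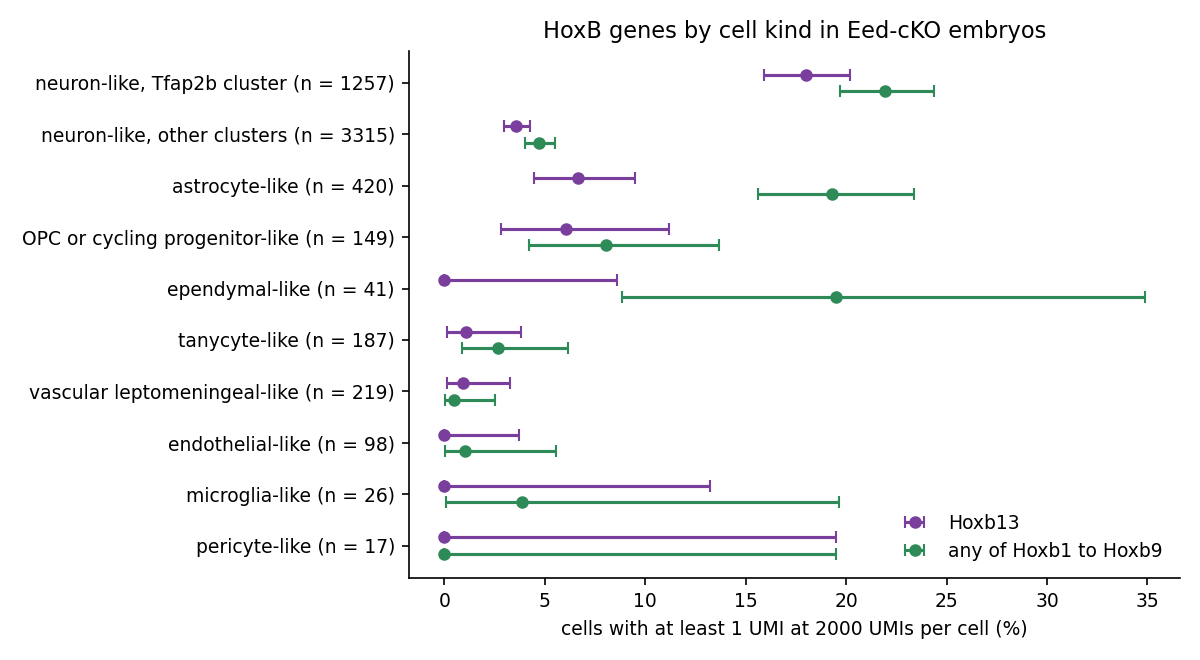
Share of *Eed-cKO* cells with at least 1 UMI at 2000 UMIs per cell (x axis, %) for *Hoxb13* (purple) and for any of *Hoxb1* to *Hoxb9* (green) in each cell kind (y axis, with the number of cells). Points are pooled cells and error bars 95% exact binomial intervals. The neurons of the *Tfap2b* cluster lie highest for *Hoxb13* (17.98%), astrocyte-like cells have 19.3% for the other genes against 6.67% for *Hoxb13*, and the 4 non-neural kinds at the bottom lie between 0 and 3.85%.

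Neuron-like cells fell into 16 clusters, and HoxB levels differed widely among them. The cluster led by *Tfap2b*, *Lamp5*, *Gata3*, *Crabp1* and *Tal1* held 1342 *Eed-cKO* cells and 41 control cells. It was 25.6% of the *Eed-cKO* neurons and held 62.2% of their *Hoxb13* UMIs and 63.3% of their UMIs of the other HoxB genes. *Gata3* and *Tal1* are regulators of inhibitory neurons in the midbrain, hindbrain and spinal cord, and *Tfap2b* belongs to the list of posterior factors that was higher in the mutants (84.9 ± 30.8 CPM against 5.64 ± 3.52). Cluster levels are given with no test.

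In each embryo, *Hoxb13* was at 68.9 to 136 CPM in this cluster (median 94.2) and at 14.3 to 30.9 CPM in all other neurons (median 21.8), higher in 9 of 9. *Hoxb3* was at 24.6 to 64.7 against 3.85 to 14.5 CPM, also without overlap. *Hoxb5*, *Hoxb4* and *Hoxb3* were higher in the cluster in 9 of 9 embryos and *Hoxb2*, *Hoxb6* and *Hoxb7* in 8. *Hoxb8* was higher there in 4 of 9 embryos (medians 1.77 and 0.806 CPM) and *Hoxb9* in 6 of 9 (1.17 and 0.330 CPM). The cluster held 15 of the 41 UMIs of *Hoxb8* in neurons and 9 of the 20 of *Hoxb9*, too few to say how these genes were divided. The ratio of the other HoxB genes to *Hoxb13* was 1.26 in the cluster and 1.198 in the other neurons.

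Outside it, *Hoxb13* was highest in the neurons led by *Pmaip1*, *Zic4* and *Trh* (79.8 CPM), in a shallow cluster led by *Enho* (69.1 CPM, median 1141 UMIs per cell) and in one led by *Alas2*, *Cga* and *Pomc* (58.3 CPM). That last cluster held 227 *Eed-cKO* cells of 5 embryos and no control cell, and *Alas2* is a gene of red blood cell precursors and *Cga* of the pituitary. It was counted as neuron-like for its neuron markers, although these leading genes are not neuronal ones. With it left out (added once the values were known), the calls named here between glia and neurons, between GABA and Glut cells and between cells with and without *Hoxb13* held, and *Hoxb4* newly passed as higher in glia (1.04 ± 0.42, adjusted p = 0.0278, edgeR). The cluster led by *Lhx6*, a factor of inhibitory neurons, and by *Dlx* transcripts was at 54.5 CPM of *Hoxb13* and 162 CPM of the other genes summed, with *Hoxb5* at 54.5 and *Hoxb8* at 19.99 CPM (11 UMIs). In pooled CPM it was the neuron cluster with the most of *Hoxb1* to *Hoxb9*, but this rests on 175 cells, and at 2000 UMIs its share of cells with one of these genes (24.4%, 95% exact interval 17.5 to 32.6%) overlapped that of the *Tfap2b* cluster (21.96%, 19.7 to 24.3%).

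Some clusters led by genes of hypothalamic neurons were low. The cluster led by *Avp* and *Sim1* was at 6.03 CPM of *Hoxb13* (7 UMIs in 143 cells), the one led by *Barhl1* and *Foxa1* at 5.98, the one led by *Cited1* and *Npy* at 8.64, and the one led by *Foxb1* at 0.602 (1 UMI in 385 cells). No *Hoxb13* UMI was found in the 88 cells led by *Vgll2*, *Fezf1* and *Nr5a1*, whose 640542 UMIs allow up to 3 UMIs, or 4.68 CPM. In the *Foxb1* and *Nr5a1* clusters, *Hoxb1* to *Hoxb9* summed to 7.83 and 7.81 CPM, near the 6.38 CPM of non-neural cells. Other clusters with such genes were not as low in *Hoxb13*: one led by *Fezf1*, *Tbr1* and *Samd3* was at 31.4 CPM, and the cluster with *Trh* among its leading genes is among the highest above. These clusters were singled out after their values were seen.

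**Figure D4:**
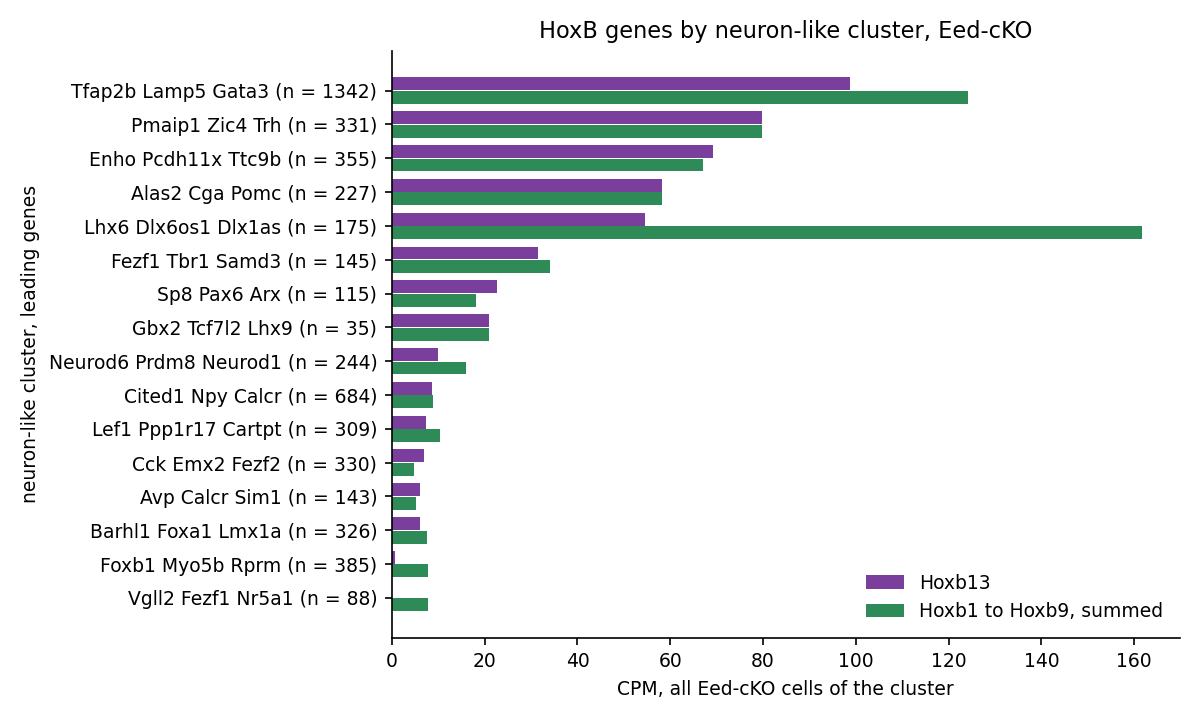
CPM of all *Eed-cKO* cells of a cluster (x axis) for *Hoxb13* (purple) and for *Hoxb1* to *Hoxb9* summed (green) in each of 16 neuron-like clusters (y axis, first 3 leading genes and number of cells). Bars are pooled over embryos and start at 0. The *Tfap2b* cluster is at 98.8 and 124 CPM, the *Lhx6* cluster at 54.5 and 162, and the *Foxb1* cluster at 0.602 and 7.83.

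Neurons were also divided by transmitter genes. Glut cells had UMIs of *Slc17a6*, the vesicular glutamate transporter, GABA cells had UMIs of *Slc32a1*, the vesicular GABA transporter, and Glut/GABA cells had both. *Hoxb13* was at 14.8 to 69.0 CPM in GABA cells (median 46.8) and 15.003 to 39.0 CPM in Glut cells (median 20.1), with overlap, higher in GABA cells in 8 of 9 embryos (log2 fold change 1.22 ± 0.19, adjusted p = 1.11e-08, edgeR with the embryo as a block). *Hoxb5* was higher in 9 of 9 embryos (1.69 ± 0.32, adjusted p = 5.61e-06, 20.6 ± 10.2 against 6.81 ± 3.11 CPM).

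*Hoxb3* (1.26 ± 0.29, adjusted p = 0.000530) and *Hoxb7* (1.60 ± 0.41, adjusted p = 0.00270) were higher as well, so that 4 of 8 members tested were higher in GABA cells, against 2.46% of all genes, and none was lower. Of the other Hox clusters, 13 of 21 were higher. *Hoxb2*, *Hoxb4*, *Hoxb6* and *Hoxb8* did not pass. The 4 calls held without the *Tfap2b* cluster (*Hoxb13* 1.51 ± 0.30). With cells thinned to 2000 UMIs, which also changes which cells show a transporter, *Hoxb13* (0.90 ± 0.23) and *Hoxb5* (1.58 ± 0.44) remained.

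Cells with both transporters had the most HoxB UMIs before thinning, 36.7% with *Hoxb13* (397 of 1081) against 16.2% of GABA and 9.13% of Glut cells, and were deeper (median 6346, 4254 and 5211 UMIs). At 2000 UMIs the shares were 15.3% (54 of 354, 95% exact interval 11.7 to 19.4%), 12.5% (64 of 514, 9.72 to 15.6%) and 6.79% (117 of 1722, 5.65 to 8.09%). The intervals of Glut/GABA and GABA cells overlap at matched depth. Cells with neither transporter were at 5.50%.

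The last comparison asks whether *Hoxb13* and the other HoxB genes were caught in the same cells. All neuron-like cells with at least 2000 UMIs were thinned to 2000, which left 4572 cells. Of these, 698 held a HoxB gene: 581 held 1 gene, 99 held 2 and 18 held 3 or more. Another HoxB gene was found in 22.7% of the 344 cells with *Hoxb13* (78 cells, 95% exact interval 18.4 to 27.5%) and in 8.37% of the 4228 cells without it (354 cells, 7.56 to 9.25%).

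Per embryo the share was 17.4 to 29.8% (median 22%) in *Hoxb13*-positive and 5.16 to 13.4% (median 9.71%) in *Hoxb13*-negative cells, higher in 9 of 9 embryos and with no overlap. Of the 9 pairs with *Hoxb13*, 8 were found together in more cells than the product of their shares gives, the exception being *Hoxb1*, with 2 positive cells. *Hoxb3* and *Hoxb13* were found together in 24 cells where the product gives 12.0, *Hoxb5* and *Hoxb13* in 22 where it gives 8.35, and *Hoxb2* and *Hoxb13* in 13 where it gives 3.91. Among *Hoxb1* to *Hoxb9*, 20 of 36 pairs were above the product and 16 had no cell, so most of these pairs were too rare to read.

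The excess was not seen to the same degree within the *Tfap2b* cluster. There, another HoxB gene was found in 25.2% of cells with *Hoxb13* (57 of 226, 19.7 to 31.4%) and 21.2% of cells without (219 of 1031, 18.8 to 23.9%), and the intervals overlap. In the other neurons the shares were 17.8% (21 of 118, 11.4 to 25.9%) and 4.22% (135 of 3197, 3.55 to 4.98%). In glia-like cells they were 23.1% (9 of 39, 11.1 to 39.3%) and 12.8% (97 of 758, 10.5 to 15.4%). The share in *Tfap2b* cluster cells without *Hoxb13* lay within the interval of all neurons with it.

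**Figure D5:**
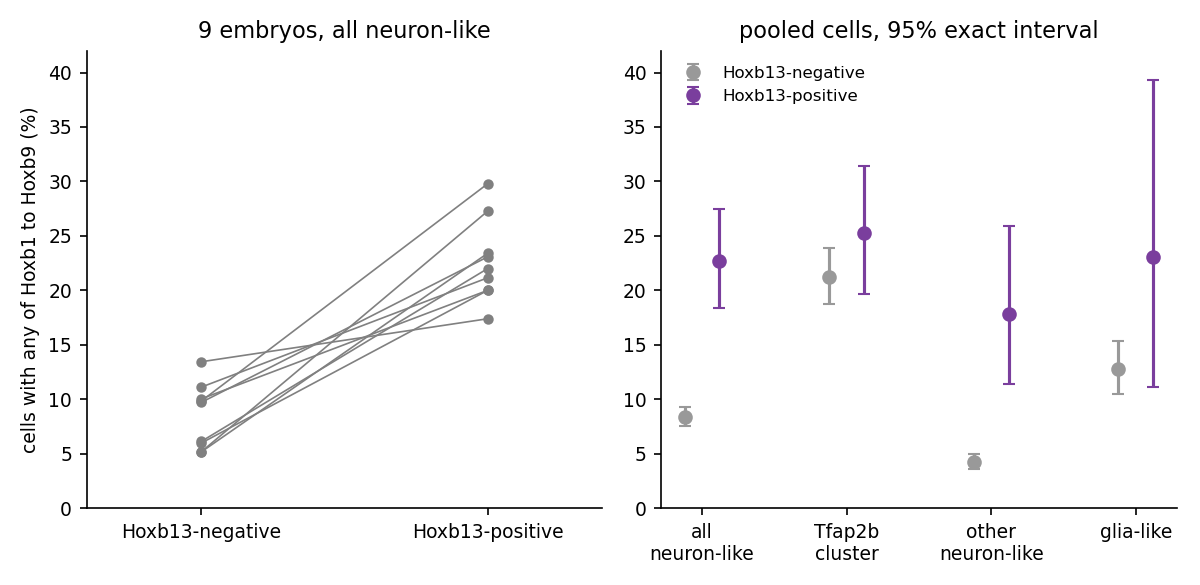
Share of *Eed-cKO* cells with any of *Hoxb1* to *Hoxb9* at 2000 UMIs per cell (y axes, %), in *Hoxb13*-negative and *Hoxb13*-positive cells. On the left each line is 1 of 9 embryos, all neuron-like cells. On the right are pooled cells of 4 groups with 95% exact binomial intervals. All lines rise, and within the *Tfap2b* cluster the groups are at 21.2% and 25.2%.

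Tested over the 9 embryos on the counts of each gene at 2000 UMIs, 1 of 6 members was higher in *Hoxb13*-positive neurons, *Hoxb2* (log2 fold change 1.96 ± 0.53, adjusted p = 0.0218, 17.6 ± 13.1 against 4.70 ± 3.18 CPM, higher in 7 of 9 embryos), where 0.445% of all genes were called higher. Scaled by library size alone, *Hoxb2* was at 2.07 (adjusted p = 0.0135, edgeR). The call ended when replicate 1, 4 or 6 was left out (adjusted p = 0.102, 0.129 and 0.226, edgeR). *Hoxb5* (1.33 ± 0.40, adjusted p = 0.0562), *Hoxb6* (1.79 ± 0.60, adjusted p = 0.114), *Hoxb7* (1.35 ± 0.48, adjusted p = 0.166) and *Hoxb3* (0.86 ± 0.38, adjusted p = 0.331) had an unadjusted p under 0.05. Of the other Hox clusters, 9 of 21 were higher, among them *Hoxc10* (1.34 ± 0.17) and *Hoxc13* (1.45 ± 0.20). *Tfap2b* (1.25 ± 0.15) and *Tfap2a* (1.60 ± 0.34) were higher too, so that membership of the *Tfap2b* cluster moved with the result.

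The count depended on depth and on the cells used. At 4000 UMIs per cell, in 8 embryos, 5 of 6 members were higher, against 1.24% of all genes: *Hoxb4* (2.76 ± 0.57), *Hoxb5* (1.92 ± 0.31), *Hoxb7* (1.86 ± 0.44), *Hoxb2* (1.62 ± 0.48) and *Hoxb3* (1.32 ± 0.28). At 1000 UMIs edgeR called 0, and 0 had an unadjusted p under 0.05. Within the *Tfap2b* cluster alone edgeR called 0 of 6 members, with 0 at an unadjusted p under 0.05, and 0.0% of the 10553 genes tested. There *Hoxb3* was at -0.50 ± 0.39 and *Hoxb2* at 0.94 ± 0.61. Outside the cluster it called 0 of 4, with 2 at an unadjusted p under 0.05 (*Hoxb7* 1.86 ± 0.79 and *Hoxb3* 1.43 ± 0.68). The difference between cells inside and outside the cluster was not tested.

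Over 40 sums of 7 cell kinds in 9 *Eed-cKO* embryos, the genes whose levels ran most like those of *Hoxb13* (Pearson's r of log2(CPM + 1), of 12287 genes) were *Shox2* (0.83), *Ctnnd2* (0.82), *Adgra1* (0.79), *Tshz1* (0.79) and *Dclk1* (0.78). Of its own cluster, *Hoxb3* ranked 17 (0.76), *Hoxb2* 264 (0.62), *Hoxb7* 1333 (0.46), *Hoxb6* 1464 (0.45) and *Hoxb5* 2377 (0.37). The sums of 1 embryo share libraries and differ in depth, and low counts weaken any correlation. *Hoxb4*, *Hoxb8*, *Hoxb9* and *Hoxb1* were too low for this comparison.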

How the data were processed

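The authors deposited 1 table of raw UMI counts, genes by cells, from ddSEQ 3′ libraries run through the SureCell pipeline. Per the labels, STAR 2.5.2b and SAMtools 1.3 were used with mm10. Cells of low quality had been removed before deposit. The table has 1 column of no sample, the gene names. The members and all gene lists were chosen with earlier results of these data known. Every member is named, and of each other list at most 4 genes, those with the smallest adjusted p.

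Cells were clustered without Hox genes (scanpy 1.11.5, leidenalg 0.10.2, scale 10000 per cell, 2000 variable genes, 30 principal components, 15 neighbours, resolution 1, seed 0). A cluster was named when at least 3 markers of a kind were raised 2-fold and found in 10% of its cells, and names rest on these rebuilt clusters. Doublets were kept. The 6% of cells with the highest Scrublet score in each library were removed as an alternative. Counts were summed per embryo, or per embryo and cell group, and the quasi-likelihood test of edgeR 4.0.16 was used (R 4.3.3, TMM, Benjamini-Hochberg at 0.05). Between the genotypes, genes needed 15 UMIs over the embryos, at least 2 of them within a single embryo, and a log-CPM whose median reached 1.5. Within *Eed-cKO*, the embryo was a block, embryos needed 10 cells of each group, and genes 15 UMIs over the sums and at least 2 within a single sum. For the *Hoxb13* comparison outside the *Tfap2b* cluster, embryos needed 5 cells of each group. limma 3.58.1 (voom with TREAT at 0.18, on libraries) and DESeq2 1.42.0 were alternatives. A standard error is the log2 fold change over the root of F. Cells were thinned at random to 2000 UMIs, with shallower cells left out, and also to 1000 and 4000. Intervals (95%) are exact binomial or Poisson, and with the lower bounds (3 UMIs over a group) they cover counting error only. Likeness used kinds with at least 20 cells in an embryo and genes with a mean of at least 5 CPM.

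The fits were tested on simulated data. False calls stayed near the threshold in each comparison but that of *Hoxb13*-positive with *Hoxb13*-negative cells, where they were well above it with TMM and below it with library size alone. All simulated sums shared the same gene profile apart from the genes changed. Library size was thus the right scale by construction, and the simulation cannot decide which scaling suits the real cells.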

Additional observations from a re-analysis of the deposited data

Results flagged for a closer look

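In each group of 4 to 10 embryos, the highest or lowest embryo was compared with the others by Dixon's ratio. For normally distributed values it marks about 1 group in 20 by chance. A group with UMIs in a single embryo is always marked, so that rate does not hold for these sparse counts. Of 76 groups, 17 had an embryo far from the others, and 12 of these values rest on at most 2 UMIs.

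In neural cells, control replicate 3 was the 1 control embryo with *Hoxb13* (0.195 CPM, 1 UMI), and *Eed-cKO* replicate 2 was highest in *Hoxb4* (7.89 CPM, 5 UMIs in the embryo with the fewest cells). *Eed-cKO* replicate 9 was highest in the share of neural cells with *Hoxb13* at 2000 UMIs (9.65%, 36 cells). Among neuron-like cells, replicate 9 was highest in *Hoxb1* (1.17 CPM, 2 UMIs) and in *Hoxb9* (2.35 CPM, 4 UMIs). Among *Hoxb13*-negative cells it was highest in *Hoxb1* (1.76 CPM, 1 UMI), and among *Hoxb13*-positive cells in *Hoxb9* (13.9 CPM, 1 UMI), where replicate 4 was highest in *Hoxb8* (21.7 CPM, 2 UMIs).

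Among glia-like cells, replicate 2 was highest in *Hoxb2* (37.8 CPM, 4 UMIs) and *Hoxb8* (18.9 CPM, 2 UMIs), replicate 8 in *Hoxb5* (22.1 CPM, 5 UMIs) and replicate 3 in *Hoxb1* (1.82 CPM, 1 UMI). Among non-neural cells, replicate 8 was highest in *Hoxb5* (14.2 CPM, 2 UMIs), *Hoxb4* (7.08 CPM, 1 UMI) and *Hoxb6* (7.08 CPM, 1 UMI), replicate 5 in *Hoxb7* (1.67 CPM, 1 UMI) and replicate 3 in *Hoxb9* (5.18 CPM, 1 UMI).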

How the results depend on the processing

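Of the values recomputed under an alternative for single members, 624 kept their direction and their side of the threshold, 23 no longer passed, 20 newly passed and 6 reversed. All 150 of the comparison between the genotypes were among the 624. Without the *Tfap2b* cluster, the difference between glia and neurons reversed for *Hoxb13* (0.16) and *Hoxb3* (0.66). *Hoxb4*, never past the threshold in these, reversed between GABA and Glut cells at 2000 UMIs (-0.19), and between *Hoxb13*-positive and *Hoxb13*-negative cells at 1000 UMIs (-0.18) and in the *Tfap2b* cluster alone (-0.49), where *Hoxb3* was at -0.50 too. The cause was not tested. Between GABA and Glut cells, 2 members passed at 2000 UMIs. Between *Hoxb13*-positive and *Hoxb13*-negative cells, 2 passed with library size alone, 2 with DESeq2, 5 at 4000 UMIs and 0 at 1000 UMIs, in the *Tfap2b* cluster alone and outside it. Leaving out 1 embryo gave 0 to 2, with 0 without replicates 1, 4 and 6 and 2 without replicate 9. The share of neural cells with *Hoxb13* was 4.12% at 1000 UMIs, 11.8% at 4000, 13.8% without thinning and 1.402% with 2 UMIs asked. Library size alone moved the median of all genes between glia and neurons from -0.12 to 0.11 and the share of higher calls from 45.9 to 58.2%. It gave 5 members higher and 2 lower, and in the *Hoxb13* comparison 60.5% of calls were higher against 30.8%. No paired analysis was possible because control and *Eed-cKO* numbers only name embryos.

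Depth limits *Hoxb1*, *Hoxb8* and *Hoxb9*, which had 8, 69 and 50 UMIs in *Eed-cKO* neural cells, and all co-detection.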

Other observations

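The 8 UMIs of *Hoxb1* in *Eed-cKO* neural cells lay in 5 female embryos, with 1 to 2 UMIs each, and the 4 male embryos had 0. In control, 1 of the 3 UMIs came from a female and 2 from a male embryo. This was noticed after the values were seen and was not tested.

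Of 16 neighbours of the cluster tested between glia-like and neuron-like *Eed-cKO* cells, 5 were higher and 6 lower in glia, near the 30.3% and 35.8% of all genes. *Ttll6* was higher by 4.996 ± 0.41 on the log2 scale, *Copz2* by 3.86 ± 0.40 and *Igf2bp1* by 2.10 ± 0.18, and *Atp5g1* was lower by 0.92 ± 0.083. *Egr2* was higher in glia by 4.36 ± 0.21 (83.4 ± 32.05 against 3.98 ± 1.91 CPM) and *Rara* by 1.46 ± 0.19, whereas *Cyp26b1* was lower by 1.66 ± 0.42.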
